A study of Homo sapiens with 5 samples.

Results

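The factors that build the small (40S) ribosomal subunit were followed through a ribosome profiling series of HAP1 cells. The list names 54 genes of the small-subunit processome, of pre-40S maturation and of the nucleolus, chosen by symbol in the deposited count table, with RNA helicases left out. Rows were found for 48 of them, out of 14042 symbols in 14084 transcript rows, and 47 held enough counts to be tested. The row of WDR46 held 1 count over all libraries and was not tested. NPM1, WDR36, DCAF13, RRP12, AATF and IMP3 were not analysed here. HAP1 is an established near-haploid human line derived from a leukaemia line. The 5 libraries form 2 groups: wild-type HAP1 cells (n = 2) and HAP1 cells with a METTL18 knockout (n = 3), with no other allele, agent or time given in the labels. METTL18 is a methyltransferase of a histidine in RPL3, a protein of the large subunit, and the study's title links it to ribosome formation and function. The labels say neither how the mutation was made nor whether it is 1 clone, so the knockout and the history of its clone cannot be told apart.

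Small subunits begin in the nucleolus, where RNA polymerase I transcribes a long precursor that holds the 18S rRNA. The U3 small nucleolar ribonucleoprotein (snoRNP) pairs with this precursor, and the UTP-A, UTP-B and MPP10 subcomplexes join it to form the processome, in which the external spacer is cut away. The particle that leaves is trimmed, modified, exported and cut a last time in the cytoplasm, with kinases and an endonuclease among its late factors. Growing cells spend much of their synthesis on this pathway.

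Ribosome footprints are mRNA fragments of 28 to 32 bases shielded by a ribosome, and a gene's count reflects both its mRNA and the ribosomes on it, which were not separated here. The libraries held 4887380 to 5302160 counts in wild type and 16339574 to 17629199 in knockout, so that the knockout was sequenced 3.33-fold deeper on average. Levels are CPM, counts scaled to a common library size, after TMM, which sets the libraries on a common scale by the genes that change least. Fold changes are knockout over wild type, and adjusted p-values come from edgeR (quasi-likelihood F-test, Benjamini-Hochberg over 11335 rows), with 0.05 as the threshold. The labels do not say that libraries of a group came from separate cultures, so the p-values cover the scatter among these 5 libraries, possibly only a technical one. METTL18 held 33 and 32 counts in wild type and 33, 32 and 34 in the deeper knockout libraries, or 5.71 ± 0.211 CPM (SD, n = 2) in wild type and 2.10 ± 0.117 CPM (SD, n = 3) in knockout, and fell by 1.44 on the log2 scale (SE 0.247, adjusted p = 2.00e-06). Of the cell type markers checked, 3 of 6 haematopoietic genes had a row, with a summed level of 0.337 to 0.366 CPM in wild type and 0.127 to 0.246 CPM in knockout. The 5 mesenchymal markers summed to 425 to 442 CPM in wild type and 1351 to 1405 CPM in knockout, with 3 higher and 1 lower. Most of that gain lay in VIM, at 120 and 138 CPM in wild type and 1050, 1059 and 1096 CPM in knockout. FN1 fell, from 160 and 161 CPM to 98.5, 93.6 and 96.9 CPM. The 4 epithelial markers with a row summed to 142 to 151 CPM in wild type against 183 to 186 CPM in knockout, with 2 higher. Of these, CDH1 went from 0.168 and 0 CPM to 13.1, 11.5 and 12.5 CPM. These differences run with genotype, and their part in the values below was not tested.

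Promoter sequence is shown first, as a property that the choice of the factors did not use. RefSeq windows (build GRCh38.p14) from 250 bases before to 50 bases after the annotated start were held for 40 of the 47 tested members. The E-box CACGTG, a palindrome bound by MYC-family and other basic helix-loop-helix factors, occurred in the windows of 18 of these 40 (45%). It occurred in 1115 of 8835 tested genes with a window (12.6%) and in 2396 of all 27305 genes with one (8.77%). Searched on both strands, the YY1-type core ATGGCG was in 37.5% of the members and 22.3% of tested genes, the NFY-type CCAAT in 45% and 43.0%, and the SP1-type GGGCGG in 77.5% and 79.3%. Of 20 E-boxes in the windows of 17 members, 15 began within 30 bases of the start. At any distance, 11 of the 20 lay after the start and 9 before it. In UTP14A the motif lay too near an edge of the window to be taken out with its flanks.

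Sites are printed here for members that rose (BYSL, IMP4, FBL and UTP18), fell (UTP20 and NOL7) or did not pass (NAT10 and TSR3), so that the shared letters and the differing flanks can be compared. Each run is 30 bases, 5′ to 3′ on the gene's strand, with the E-box in capitals. Starts are those of RefSeq and need not be those of the counted transcripts. By GENCODE the counted transcripts of BYSL and IMP4 begin well upstream of the RefSeq start, and both IMP4 sites and those of BYSL and NAT10 lie downstream of the counted transcript's start.
BYSL chr6:41921515-41921544 (+ strand, 29 bases after the start): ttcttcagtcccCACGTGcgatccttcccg
IMP4 chr2:130342682-130342711 (+ strand, 203 bases before the start): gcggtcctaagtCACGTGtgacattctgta
IMP4 chr2:130342900-130342929 (+ strand, 16 bases after the start): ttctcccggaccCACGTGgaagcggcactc
FBL chr19:39846356-39846385 (- strand, 7 bases after the start): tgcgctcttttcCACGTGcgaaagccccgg
UTP18 chr17:51260445-51260474 (+ strand, 89 bases before the start): gggagtgctggtCACGTGgcaagaggctgc
UTP18 chr17:51260538-51260567 (+ strand, 5 bases after the start): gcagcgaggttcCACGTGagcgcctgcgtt
UTP20 chr12:101280083-101280112 (+ strand, 10 bases before the start): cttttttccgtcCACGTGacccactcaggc
NOL7 chr6:13615174-13615203 (+ strand, 149 bases before the start): gcctgcgctggcCACGTGgaaagaaacacg
NAT10 chr11:34105602-34105631 (+ strand, 15 bases before the start): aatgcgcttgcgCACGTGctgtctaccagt
TSR3 chr16:1351923-1351952 (- strand, 62 bases before the start): ccgccgcgcggtCACGTGaagtgacggtca
TSR3 chr16:1351907-1351936 (- strand, 46 bases before the start): tgaagtgacggtCACGTGaccacggggacc

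The same 6 letters stood in the windows of members that moved in either direction. Among the 18 members with an E-box in the window, 10 rose, 3 fell and 5 did not pass, with a median log2 fold change of 0.21. Among the 22 with a window and no E-box, 15 rose, 5 fell and 2 did not pass, with a median of 0.48. Of all 11335 rows, 37.8% rose and 36.6% fell, with a median of 0.016. The changes of other tested genes with an E-box were not counted, so these numbers do not show a link between motif and change. A match of letters is a description of the window and not a bound site.

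Most of the factors were higher in the knockout. Of the 47 tested, 30 rose (63.8%), 10 fell (21.3%) and 7 did not pass, where 37.8% of all 11335 rows rose and 36.6% fell. The share that changed in either direction was 85.1%, beside 74.4% of all rows. Their median log2 fold change was 0.29, with quartiles at -0.096 and 0.68, and the median over all rows was 0.016. Changes were moderate in size: when a fold above 1.5 was required, 11 rose and 2 fell, 27.7% of the members beside 36.5% of all rows (17.7% higher and 18.8% lower). Knockout and wild-type values did not overlap for 44 of the 47 (93.6%), 30 above and 14 below, and the same held for 83.5% of all rows (42.5% above and 41% below).

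The size of the list's median depends on the scaling. Scaling by total counts in place of TMM shifts every gene by about the same amount, to a median of -0.26 over all rows. The members' median was then 0.016, with 21 of the 47 higher and 16 lower. Of all 11335 rows, 2982 were higher and 5597 lower under that scaling. Relative to all rows the members' median was 0.27 higher under either scaling. A plain share of the counts of a library is itself on the total-count scale, and so is not free of scaling. The 48 factors took 0.963% and 0.976% in wild type and 1.11%, 1.11% and 1.08% in knockout. The mean share was 0.970% ± 0.00907 (SD, n = 2) against 1.10% ± 0.0205 (SD, n = 3). Nucleolin (NCL) gained more than the list as a whole: it went from 0.245% ± 0.000133 (SD, n = 2) to 0.391% ± 0.0129 (SD, n = 3). Without NCL, an alternative chosen after seeing the data, the other factors took 0.725% ± 0.00894 (SD, n = 2) in wild type and 0.709% ± 0.00842 (SD, n = 3) in knockout.

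**Figure D1:**
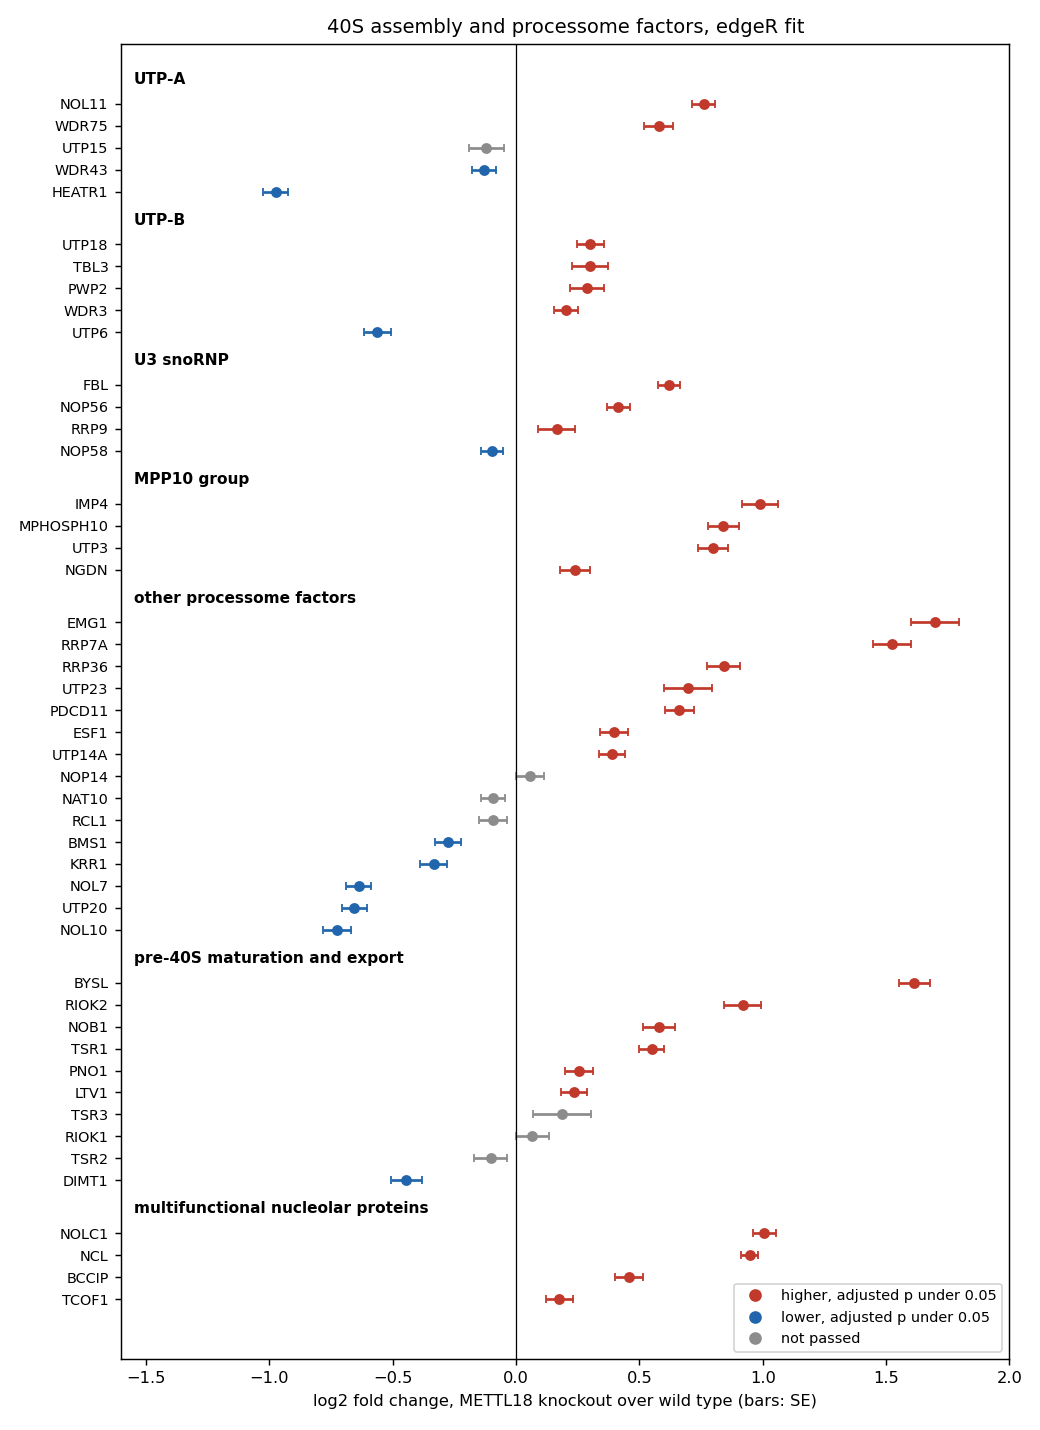
Log2 fold change of each of the 47 tested factors, METTL18 knockout over wild type, with its standard error (bars), grouped by subcomplex or stage and coloured by the edgeR call. The MPP10 group and the multifunctional proteins lie wholly to the right of 0, while UTP-A and the other processome factors spread to both sides, from -0.97 for HEATR1 to 1.70 for EMG1.

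UTP-A is the subcomplex that binds the precursor first and is also tied to rDNA transcription. Its 5 listed subunits split, with 2 higher (40%), 2 lower (40%) and 1 that did not pass, beside 37.8% and 36.6% of all rows. HEATR1, its largest scaffold, made of helical repeats (hg38 chromosome 1, 236549005 to 236604504, minus strand), stood at 273 and 284 CPM in the wild-type libraries and 139, 136 and 151 CPM in the knockout libraries. It fell by 0.97 on the log2 scale (SE 0.0506, adjusted p = 9.23e-21), the deepest fall among the factors, and the groups were far apart. NOL11, a metazoan subunit, went the other way. It stood at 208 and 207 CPM in the wild-type libraries and 341, 358 and 354 CPM in the knockout libraries (log2 fold change 0.76, SE 0.0477, adjusted p = 5.39e-18). WDR75, a propeller protein, was at 83.7 and 88.0 CPM in wild type and 127, 130.9 and 126 CPM in knockout (log2 fold change 0.58, SE 0.0600, adjusted p = 2.26e-11). Both rose in each knockout library. UTP4 (older symbol CIRH1A), a UTP-A subunit outside this list, fell from 212 ± 5.82 CPM (SD, n = 2) to 191 ± 6.25 CPM (SD, n = 3). Its log2 fold change was -0.15 (SE 0.0499, adjusted p = 0.00656). The remaining listed pair of propeller subunits moved little. WDR43 was at 299 and 300.2 CPM in wild type and 291, 271 and 261 CPM in knockout (log2 fold change -0.13, SE 0.0483, adjusted p = 0.0163), a call lost without wild type replicate 1 (-0.13, adjusted p = 0.0895), without wild type replicate 2 (-0.13, adjusted p = 0.0861) and without knockout replicate 3 (-0.099, adjusted p = 0.0588). UTP15 was at 67.4 and 69.5 CPM in wild type and 62.3, 60.8 and 65.9 CPM in knockout (log2 fold change -0.12, SE 0.0696, adjusted p = 0.117); it passed as lower without knockout replicate 3 (-0.16, adjusted p = 0.047), with the replicate number as a block (adjusted p = 0.0423), with upper-quartile factors (adjusted p = 0.0363), with the knockout thinned to the wild-type depth (adjusted p = 0.0323), with a mean CPM of at least 10 (adjusted p = 0.02) and with total-count scaling (adjusted p = 5.01e-06).

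UTP-B, which follows UTP-A onto the precursor and chaperones the U3 pairing, moved up by small steps in 4 of its 5 measured subunits and down in UTP6. That is 80% higher and 20% lower, beside 37.8% and 36.6% of all rows. The risers were propeller proteins. UTP18 stood at 126 and 138 CPM in the wild-type libraries and 164, 162 and 162 CPM in the knockout libraries (log2 fold change 0.30, SE 0.0546, adjusted p = 4.85e-06). PWP2 was at 65.2 and 58.4 CPM in wild type and 77.5, 74.5 and 74.6 CPM in knockout (log2 fold change 0.29, SE 0.0696, adjusted p = 3.19e-04) and TBL3 at 67.9 and 57.4 CPM in wild type and 80.0, 73.4 and 78.5 CPM in knockout (log2 fold change 0.30, SE 0.0725, adjusted p = 3.25e-04). Wild type replicate 2 was the lower of the wild-type pair for both, and without it TBL3 did not pass (0.18, adjusted p = 0.0801). WDR3 rose by 0.20, and the calls of UTP18, PWP2, TBL3 and WDR3 were all lost with total-count scaling. UTP6, a helical repeat protein, stood at 164 and 179 CPM in the wild-type libraries and 116, 120.2 and 113 CPM in the knockout libraries (log2 fold change -0.56, SE 0.0548, adjusted p = 3.90e-12), with no overlap between groups.

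Of the 4 listed proteins of the box C/D U3 snoRNP, the catalytic subunit rose most; SNU13, a core protein outside this list, is given with the other genes of the pathway. Fibrillarin (FBL), the methyltransferase that the guide RNAs of this class direct to rRNA riboses, stood at 434 and 426 CPM in the wild-type libraries and 630.02, 672 and 681 CPM in the knockout libraries (log2 fold change 0.62, SE 0.0431, adjusted p = 1.53e-16). NOP56, one of the paired scaffold proteins, was at 216 and 219 CPM in wild type and 292, 286 and 291 CPM in knockout (log2 fold change 0.41, SE 0.0472, adjusted p = 2.42e-10). All 3 knockout libraries lay above the wild type for both. The partner scaffold did not follow: NOP58 stood at 419.8 and 423 CPM in the wild-type libraries and 396, 409 and 377 CPM in the knockout libraries (log2 fold change -0.096, SE 0.0440, adjusted p = 0.0461). That small fall was not stable, since the call was lost without wild type replicate 1 (-0.10, adjusted p = 0.152), wild type replicate 2 (-0.096, adjusted p = 0.177) or knockout replicate 3 (-0.071, adjusted p = 0.14), with DESeq2 (adjusted p = 0.0577), with limma-voom (adjusted p = 0.0536), without a low-count filter and with the replicate number as a block (adjusted p = 0.127). RRP9, the propeller protein specific to U3, was at 61.8 and 51.8 CPM in wild type and 65.8, 60.8 and 65.0 CPM in knockout (log2 fold change 0.16, SE 0.0760, adjusted p = 0.0483). Its groups overlapped, and it did not pass without wild type replicate 2 (0.041, adjusted p = 0.717), without knockout replicate 1 (0.14, adjusted p = 0.111), without knockout replicate 3 (0.15, adjusted p = 0.0871), with DESeq2, with limma-voom or with other scaling factors.

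The MPP10 group rose in all 4 measured members, where 37.8% of all rows rose. Its median log2 fold change was 0.82, beside 0.016 over all rows. MPHOSPH10, its namesake, stood at 72.4 and 75.01 CPM in the wild-type libraries and 136, 130.99 and 129 CPM in the knockout libraries (log2 fold change 0.84, SE 0.0621, adjusted p = 1.02e-15). IMP4, which helps U3 pair with the precursor, stood at 47.3 and 53.6 CPM in the wild-type libraries and 103, 94.1 and 103 CPM in the knockout libraries (log2 fold change 0.99, SE 0.0730, adjusted p = 1.02e-15). UTP3, the human counterpart of yeast SAS10, was at 73.8 and 74.8 CPM in wild type and 130.1, 131.4 and 126 CPM in knockout (log2 fold change 0.80, SE 0.0616, adjusted p = 4.22e-15). Every knockout library exceeded both wild-type libraries for these 3 genes, by 1.74-fold to 1.98-fold in the fit. NGDN rose less, from 88.8 ± 2.48 CPM (SD, n = 2) to 105 ± 0.928 CPM (SD, n = 3), and its rise of 0.24 was lost with total-count scaling.

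**Figure D2:**
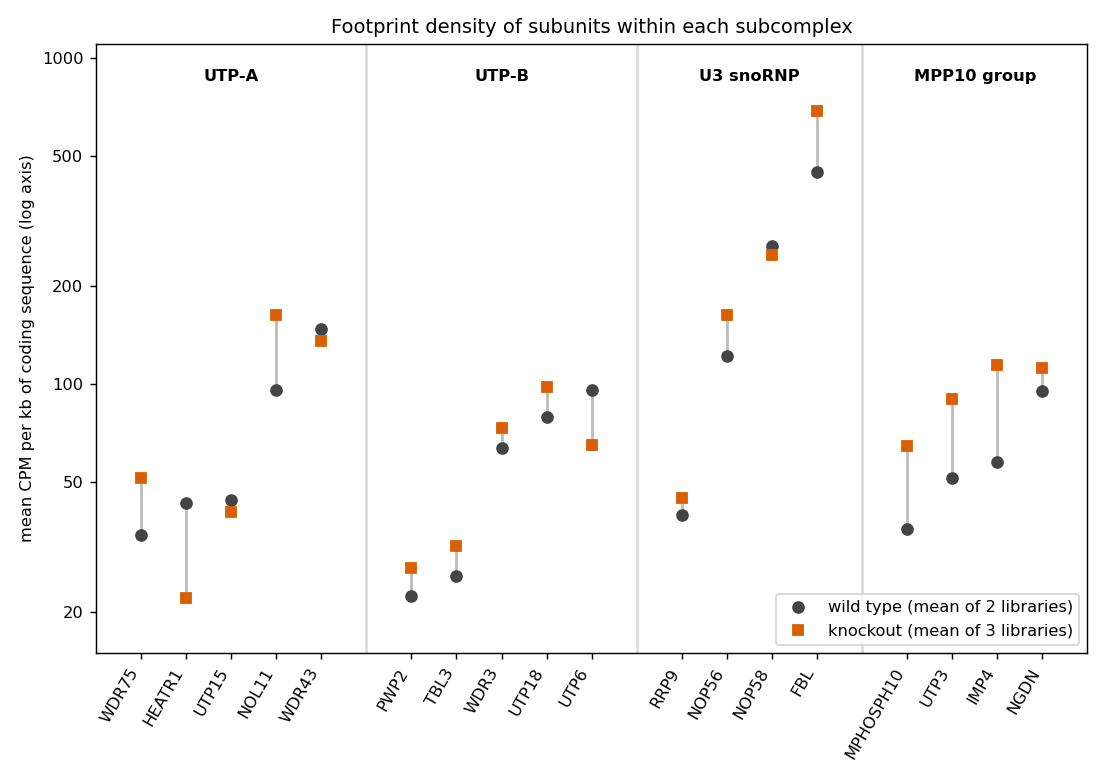
Mean footprint density (CPM per kb of coding sequence, log axis) of each listed and tested subunit in wild type (circles) and knockout (squares), ordered within each subcomplex by the wild-type value. The gap between subunits widened from 4.28-fold to 7.37-fold in UTP-A and narrowed from 2.64-fold to 1.77-fold in the MPP10 group.

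Divided by coding length, the counts give a footprint density that can be set side by side between genes. In the wild type the densities of the 5 listed UTP-A subunits ran from 34.5 CPM per kb (WDR75) to 148 CPM per kb (WDR43), a 4.28-fold range. In the knockout they ran from 22.1 (HEATR1) to 163 CPM per kb (NOL11), a 7.37-fold range. In the MPP10 group the range narrowed, from 2.64-fold to 1.77-fold, as MPHOSPH10 (36.1 to 64.6 CPM per kb) and IMP4 (57.8 to 114) rose more than NGDN (95.2 to 112), the densest in wild type. For UTP-B the range was 4.28-fold in wild type and 3.56-fold in knockout, with PWP2 (22.4 and 27.4 CPM per kb) at the low end of both. Of the windows of 28 coding bases in PWP2, 95.9% are shared with a transcript of another gene, as are 26.9% of those in NOL11. The densities of PWP2 and NOL11 depend on how reads that match several places were counted, which is not known. The 4 listed U3 snoRNP proteins spanned 11.2-fold in wild type and 15.3-fold in knockout, from RRP9 (39.8 and 44.8 CPM per kb) to FBL (446 and 686). FBL, NOP56 and NOP58 also serve the other box C/D snoRNPs. No test was made of these ranges, and they hold for coding length: full transcript length in its place changed the density of 46 of the 47 members by more than its SD in wild type.

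Processome factors outside these subcomplexes ran from the largest rise of all, EMG1, to 5 of the 10 falls. Of 15 tested, 7 rose (46.7%), 5 fell (33.3%) and 3 did not pass, beside 37.8% and 36.6% of all rows. EMG1, a methyltransferase of a pseudouridine in 18S rRNA (hg38 chromosome 12, 6970893 to 6979941, plus strand), stood at 19.0 and 16.6 CPM in the wild-type libraries and 57.6, 58.4 and 58.0 CPM in the knockout libraries. Its mean went from 17.8 ± 1.68 CPM (SD, n = 2) to 58.0 ± 0.391 CPM (SD, n = 3), a 3.24-fold rise (log2 fold change 1.70, SE 0.0967, adjusted p = 2.16e-19). RRP7A, a partner of the UTP-C subcomplex (hg38 chromosome 22, 42509968 to 42519802, minus strand), stood at 31.0 and 35.3 CPM in the wild-type libraries and 96.5, 95.1 and 93.6 CPM in the knockout libraries, a 2.87-fold rise (log2 fold change 1.52, SE 0.0776, adjusted p = 4.82e-21). RRP36, which joins the same early particle, was at 67.7 and 72.8 CPM in wild type and 133, 128 and 117 CPM in knockout (log2 fold change 0.84, SE 0.0673, adjusted p = 1.20e-14). For all 3 the lowest knockout library was above the highest wild-type library. UTP23, a protein with a PIN-type nuclease fold, rose by 0.70, PDCD11, a large RNA-binding protein that acts on precursors of both subunits, by 0.66, ESF1 by 0.40 and UTP14A by 0.39.

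The falls in this class were of proteins with unlike structures. NOL10, a propeller protein, stood at 135 and 142 CPM in the wild-type libraries and 81.4, 83.1 and 86.9 CPM in the knockout libraries (log2 fold change -0.73, SE 0.0578, adjusted p = 1.04e-14). UTP20, a very large helical repeat protein (hg38 chromosome 12, 101280109 to 101386616, plus strand), stood at 216 and 215 CPM in the wild-type libraries and 141, 132 and 137 CPM in the knockout libraries (log2 fold change -0.66, SE 0.0505, adjusted p = 3.95e-15). NOL7, a small nucleolar protein, was at 255 and 255 CPM in wild type and 165, 173 and 154 CPM in knockout (log2 fold change -0.64, SE 0.0509, adjusted p = 1.16e-14). Wild-type and knockout libraries were clearly separate for these 3 genes. KRR1, an RNA-binding protein, fell by 0.33 and BMS1, the GTPase that works with RCL1, fell by 0.28, both on the log2 scale. RCL1 itself, a cyclase-like protein, did not pass: it was at 121 and 118 CPM in wild type and 110.2, 114 and 112 CPM in knockout (log2 fold change -0.095, SE 0.0566, adjusted p = 0.126). NAT10, the RNA acetyltransferase of 18S rRNA, did not pass either, at 202 and 199.8 CPM in wild type and 192, 188 and 185 CPM in knockout (log2 fold change -0.092, SE 0.0493, adjusted p = 0.0882). It passed as lower without knockout replicate 1 (-0.11, adjusted p = 0.0381), and NAT10 and RCL1 both passed as lower with upper-quartile factors (-0.13, adjusted p = 0.0135 and -0.14, adjusted p = 0.0283), with a mean CPM of at least 10 and with total-count scaling, and NAT10 also with the knockout thinned to the wild-type depth. For RCL1 and NAT10 all knockout libraries lay below the wild type, by small amounts. NOP14 was at 156 and 178 CPM in wild type and 183, 174 and 164 CPM in knockout, with overlap (log2 fold change 0.058, SE 0.0567, adjusted p = 0.359), and its sign turned without wild type replicate 1 (-0.036, adjusted p = 0.689).

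**Figure D3:**
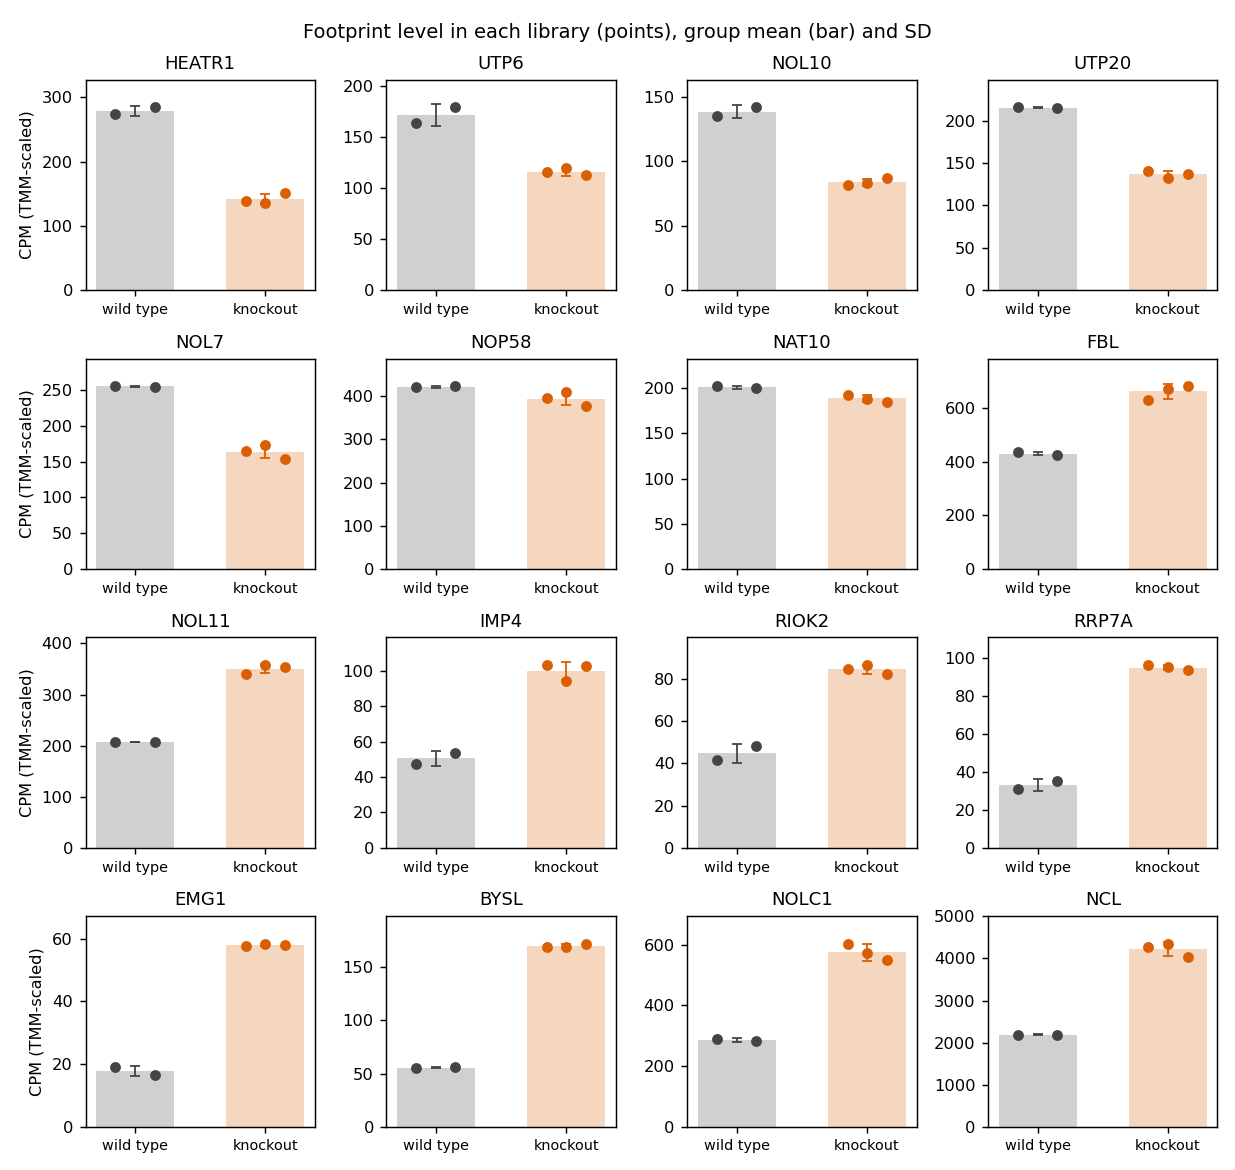
Footprint level (CPM after TMM scaling, axes from 0) of 16 factors in each of the 5 libraries, with points for libraries, bars for group means and error bars for the SD (wild type n = 2, knockout n = 3). The spread within a group is small beside the gap between groups for most factors shown, while NOP58 and NAT10 differ little.

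Factors of the later, pre-40S particle mostly rose. Of 10 tested, 6 rose (60%), 1 fell (10%) and 3 did not pass, beside 37.8% and 36.6% of all rows. With a fold above 1.5 required, 2 (20%) were higher, beside 17.7% of all rows. BYSL, the counterpart of yeast ENP1, which stays from the processome to export (hg38 chromosome 6, 41921188 to 41933046, plus strand), stood at 55.2 and 55.8 CPM in the wild-type libraries and 169, 169 and 172 CPM in the knockout libraries. Its mean went from 55.5 ± 0.404 CPM (SD, n = 2) to 170.02 ± 1.88 CPM (SD, n = 3), a 3.06-fold rise (log2 fold change 1.61, SE 0.0632, adjusted p = 4.82e-25). RIOK2, an atypical kinase of late cytoplasmic maturation, was at 41.6 and 47.9 CPM in wild type and 84.7, 86.4 and 82.2 CPM in knockout (log2 fold change 0.92, SE 0.0746, adjusted p = 1.88e-14). Its relative RIOK1, which acts in the last steps, did not pass, at 82.2 and 85.4 CPM in wild type and 90.4, 92.6 and 80.1 CPM in knockout (log2 fold change 0.067, SE 0.0679, adjusted p = 0.374). The difference between the kinases was not tested. TSR1, a protein related to GTPases that blocks early binding of initiation factors, was at 177 and 171 CPM in wild type and 257, 262 and 245 CPM in knockout (log2 fold change 0.55, SE 0.0507, adjusted p = 8.16e-13). NOB1, the endonuclease that makes the final cut of 18S rRNA, rose by 0.58, its partner PNO1 by 0.26 and the export factor LTV1 by 0.24; the calls of PNO1 and LTV1 were lost with total-count scaling.

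DIMT1, which dimethylates adenines near the end of 18S rRNA, was the late factor that fell, at 99.3 and 95.9 CPM in wild type and 70.7, 71.7 and 72.8 CPM in knockout (log2 fold change -0.44, SE 0.0619, adjusted p = 2.99e-08). TSR2, a carrier of a small-subunit ribosomal protein, was at 78.3 and 85.1 CPM in wild type and 71.6, 78.2 and 78.1 CPM in knockout (log2 fold change -0.10, SE 0.0668, adjusted p = 0.164), without overlap; with the knockout thinned to the wild-type depth it passed as lower (-0.18, adjusted p = 0.0259), as it did with a mean CPM of at least 10 and with total-count scaling. TSR3, which adds the last group to the base that EMG1 methylates, was at 19.2 and 17.9 CPM in wild type and 20.7, 19.7 and 23.2 CPM in knockout (log2 fold change 0.19, SE 0.117, adjusted p = 0.144). Its mean level in knockout, 21.2 CPM, was the lowest among the tested factors. Set side by side, the enzymes of the list that modify 18S rRNA bases therefore went different ways, with EMG1 higher, DIMT1 lower, and NAT10 and TSR3 not past the threshold.

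The multifunctional nucleolar proteins all rose, 4 of 4 measured, where 37.8% of all rows rose. NCL, an abundant RNA-binding protein of rDNA transcription and early processing (hg38 chromosome 2, 231453531 to 231464594, minus strand), stood at 2187 and 2192 CPM in the wild-type libraries and 4271, 4349 and 4046 CPM in the knockout libraries. That is a 1.93-fold rise (log2 fold change 0.95, SE 0.0358, adjusted p = 1.50e-25) at the highest level of the list, 1028 CPM per kb in wild type and 1982 in knockout, against a median of 63.6 and 79.3 over the tested factors. NOLC1, a serine-rich snoRNP chaperone, stood at 289.9 and 282 CPM in the wild-type libraries and 603, 572 and 549 CPM in the knockout libraries, a 2.01-fold rise (log2 fold change 1.01, SE 0.0464, adjusted p = 1.53e-22). BCCIP, a partner of BRCA2, was at 112 and 120.4 CPM in wild type and 159.7, 165 and 154 CPM in knockout (log2 fold change 0.46, SE 0.0567, adjusted p = 1.91e-09). These 3 were higher in every knockout library. TCOF1, or treacle, is related in makeup to NOLC1, and mutations in it cause a craniofacial syndrome. It rose by 0.18 (SE 0.0542, adjusted p = 0.00382). The call was lost without wild type replicate 1 (0.12), with a mean CPM of at least 10 (0.12, adjusted p = 0.0540) and with total-count scaling.

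**Figure D4:**
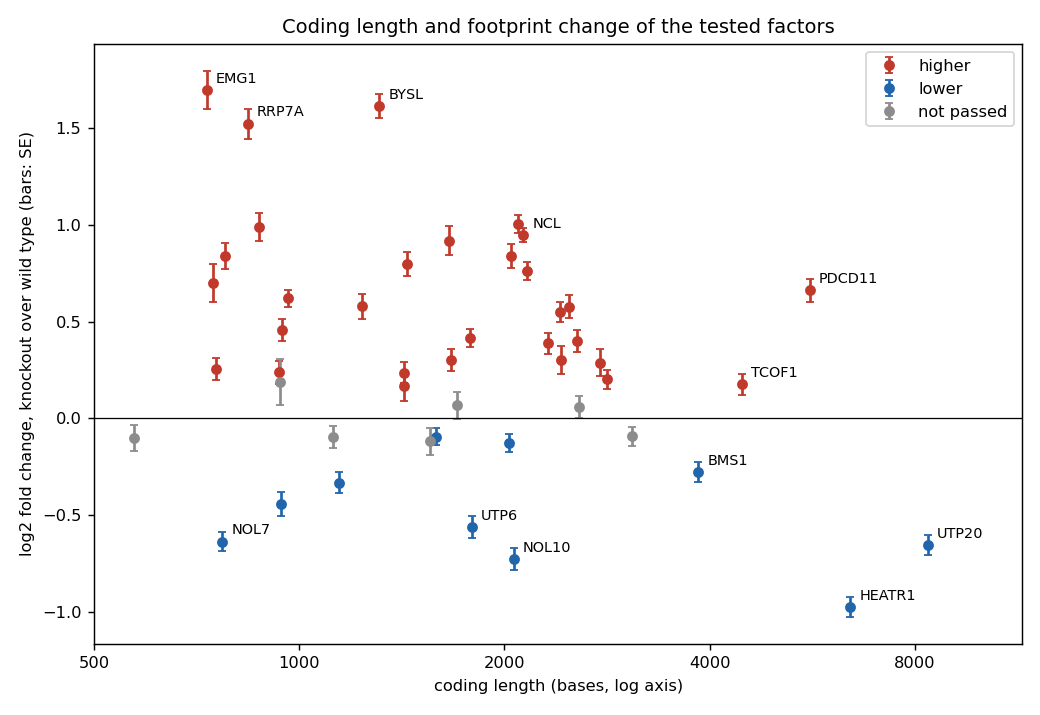
Log2 fold change (knockout over wild type, bars are SE) against coding length (bases, log axis) for the 47 tested factors, coloured by call. The longest coding sequences, UTP20 and HEATR1, are among the falls and EMG1 and RRP7A, both short, among the largest rises, while PDCD11 is long and rose and NOL7 is short and fell.

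Properties that the choice of genes did not use were compared with the changes. Across the 47 factors the log2 fold change was weakly lower in longer coding sequences (Pearson r = -0.31 on log2 length, Spearman rho = -0.21), as over 11284 rows with a coding length (-0.13 and -0.17). The factors share libraries and are not independent, so these are descriptions. UTP20 (8355 coding bases) and HEATR1 (6432) fell, but PDCD11 (5613) and TCOF1 (4464) rose. Among 20 factors with at least 2000 coding bases 13 rose and 5 fell, where 30.7% of rows of that length rose and 45.85% fell. Among 13 with under 1000 bases 9 rose and 2 fell, where 44.5% rose and 28.55% fell. Among the 14 of middle length 8 rose and 3 fell, where 38.3% rose and 35.4% fell. From short to long the members' medians were 0.46, 0.20 and 0.29, with no steady decline, and those of all rows were 0.16, 0.035 and -0.18. Introns of 6 members hold 18 annotated snoRNA genes on the same strand, among them 5 in NOP56, 4 in NOP58 and 3 each in NCL and WDR43. Of these 6 host genes, 4 rose (NCL, NOL11, NOP56 and TSR1) and 2 fell (NOP58 and WDR43), where 37.8% of all rows rose and 36.6% fell. Both falls were small (-0.096 for NOP58 and -0.13 for WDR43), and both calls were lost without knockout replicate 3.

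Near-copies make some single values uncertain, since the sources do not tell how reads that match several places were counted. Of the 47 factors, 27 shared no window of 28 coding bases with a transcript of another gene. In 7 (NOL11, PWP2, UTP14A, BMS1, RRP7A, LTV1 and NOB1) many windows were shared, from 26.2% in UTP14A to 95.9% in PWP2, there all with a transcript of FP565260.1. For RRP7A, 51.05% were shared, all with its relative RRP7BP. Without these 7, an alternative chosen after seeing the data, 24 of the remaining tested factors rose and 9 fell, with a median log2 fold change of 0.25. Of all rows, 37.8% rose and 36.6% fell.

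Other genes of small-subunit biogenesis, from a list of 28 that are neither members nor helicases, moved both ways. Of 27 measured, 13 rose (48.1%), 10 fell (37.0%) and 4 did not pass, beside 37.8% and 36.6% of all rows. Their median log2 fold change was 0.056, beside 0.016 over all rows. With total-count scaling it turned to -0.22, while the median over all rows went to -0.26. Without wild type replicate 2 the median of these genes was 0.20. SNU13, which binds the turn that starts assembly of box C/D snoRNPs such as U3, rose from 149 ± 3.04 CPM (SD, n = 2) to 283 ± 7.07 CPM (SD, n = 3), log2 fold change 0.92. LYAR, a nucleolar zinc finger protein, rose from 140.1 ± 2.39 CPM (SD, n = 2) to 208 ± 6.56 CPM (SD, n = 3), log2 fold change 0.57. BUD23 (WBSCR22 in the table), a guanine methyltransferase of 18S rRNA, fell from 204 ± 6.27 CPM (SD, n = 2) to 148 ± 4.41 CPM (SD, n = 3), log2 fold change -0.46, while TRMT112, its activating partner, rose from 159 ± 1.69 CPM (SD, n = 2) to 217 ± 3.53 CPM (SD, n = 3), log2 fold change 0.45. METTL5, the adenine methyltransferase of 18S rRNA that TRMT112 also activates, fell from 118 ± 0.733 CPM (SD, n = 2) to 93.7 ± 4.13 CPM (SD, n = 3), log2 fold change -0.34. UTP14C, a retrocopy of UTP14A, fell from 9.87 ± 1.57 CPM (SD, n = 2) to 4.73 ± 0.804 CPM (SD, n = 3), log2 fold change -1.05. All windows of UTP14C (100%) were shared with transcripts of ALG11, so its reads cannot be told apart from those of that gene; UTP14A shared 26.2% of its windows with the same transcripts. METTL5, UTP14C and, with UTP-A above, UTP4 were named after their values were seen.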

How the data were processed

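Ribosome footprints of 5 libraries were analysed. The authors deposited raw counts per transcript row in 1 table; per the submitters' processing notes Bowtie and hg38 were used, while no source names the counter or its treatment of duplicate or multiply matching reads. Libraries were grouped by the genotype in their titles. A symbol with several rows was represented by its most counted row. Counts of all rows that passed filterByExpr (minimum count 10, minimum total 15) were fitted with edgeR 4.0.16 in R 4.3.3 (TMM factors, robust quasi-likelihood fit, group as the sole term). DESeq2 1.42.0 and limma 3.58.1 were alternatives, among other scalings, filters, a replicate block, thinning and left-out libraries. The fit was first run on simulated counts in which few rows were changed. That run does not cover data where 74.4% of all rows are called. GENCODE 29 gave coordinates and coding lengths, and RefSeq windows gave promoter sequence. Every member is named; libraries are given one by one for up to 3 members of each class with the smallest adjusted p in each direction, for members that did not pass and for METTL18. From the other genes of the pathway, the 4 with the smallest adjusted p are named, with UTP4, METTL5 and UTP14C added later. Members and lists were chosen with earlier results of these data known. Python 3.11.15 and pandas 2.3.3 made the tables.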

Additional observations from a re-analysis of the deposited data

How the results depend on the processing

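Of the 47 factors, 29 kept their direction and their side of the threshold under each alternative other than a required fold, and 18 did not under at least 1 of them. A required fold above 1.5 left 11 higher and 2 lower, and 3 higher and 1 lower among the other genes of the pathway. Total-count scaling gave 16 members lower, 6 other genes higher and medians of 0.016 and -0.22, and turned the sign of WDR3 (-0.070), RRP9 (-0.11), NGDN (-0.034), NOP14 (-0.21), LTV1 (-0.036), TSR3 (-0.083), RIOK1 (-0.21), PNO1 (-0.016) and TCOF1 (-0.096). That scaling shifts all genes by construction, and left 2982 of all 11335 rows higher and 5597 lower. NOP14 also turned with a mean CPM of at least 10 (-0.0018), and with 1 library left out it ranged from -0.036 (without wild type replicate 1) to 0.15 (without wild type replicate 2). The members' median was 0.23 with the knockout thinned to the wild-type depth and 0.23 with a mean CPM of at least 10, 0.32 without a low-count filter, 0.25 with upper-quartile factors and 0.25 without the 7 members that share many windows. The median of the other genes was 0.0040 after thinning and 0.014 with upper-quartile factors; the cause was not tested. With 1 library left out, the members' median ranged from 0.27 to 0.30, the count higher from 28 to 30, the count lower from 8 to 11, the median of the other genes from 0.046 to 0.20 and the gain in share of counts from 0.124 to 0.142 percentage points. Without NCL that gain was -0.016 percentage points. Where wild type was left with 1 library, it was taken to vary like the knockout. With the replicate number as a block 30 members rose and 10 fell, the same counts, with UTP15 gained and NOP58 lost. Same-numbered libraries did not deviate together (correlations 0.0085 and 0.023). With 2 wild-type libraries, whose deviations mirror each other, this cannot decide whether libraries were prepared as pairs. The lower wild-type depth limits the precision of members with few counts, such as TSR3 and EMG1.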
